A study of Mus musculus with 10 samples.

Results

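The 9 genes described here encode leukocyte adhesion molecules of brain endothelium and were followed through bulk RNA sequencing of brain endothelial cells (BECs). They were chosen by name (Icam1, Icam2, Vcam1, Sele, Selp, Mcam, Alcam, Cd34 and Cd99l2), and 9 of the 9 were found among the 14106 genes measured. The cells were taken from cortices of females aged 1 year on a C3H/BL6 background. There were 5 APP/PS1 libraries and 5 libraries of controls, whose genotype is labelled WT. APP/PS1 mice carry transgenes for a mutant amyloid precursor protein and a mutant presenilin 1 and deposit Aβ in the brain, so they model amyloid deposition and not every feature of Alzheimer's disease. Both groups of mice were perfused, the meninges were removed, the cortex was digested with enzymes, myelin was depleted, and CD31+CD45- cells were enriched with magnetic beads, so the cells of both groups passed through the same isolation. How many mice went into each library is not given in the sources used here. Each SD of a group is thus the spread between libraries in the deposited values, and each SD of pair differences the spread between pairs. Both may be technical.

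Leukocytes leave the blood in steps. Selectins on the endothelium catch them and let them roll, chemokines held at the surface activate their integrins, the immunoglobulin-type molecules ICAM-1, ICAM-2 and VCAM-1 bind those integrins and hold the cells, and molecules at the junctions, among them CD99L2, take part in the passage between endothelial cells. Resting brain endothelium is known for low levels of selectins and of ICAM-1 and VCAM-1, which rise with inflammatory signals, and the selectins are mostly found in venules. The comparison asks whether RNA for these molecules differs in BECs of APP/PS1 mice.

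The 10 libraries held between 22371766 and 126686149 counts after the authors' batch correction, with replicate 1 lowest in both groups. All 20 endothelial marker genes listed were measured, at mean levels between 8.42 and 12.77 log2 CPM (counts scaled by library size to CPM, on the log2 scale), and their summed level was 39513 to 42526 CPM in controls and 39488 to 42549 CPM in APP/PS1 libraries. The control and the APP/PS1 library of the same replicate number form a pair here. The deposited values are centered within these pairs. Pair means hardly varied, with an SD over the 5 pairs of 0.00353 log2 units for the median gene and of at most 0.132 for the 9 genes. A library's value is thus known relative to its partner, and when one library of a pair is high the other is low. The SD of a group therefore repeats the spread of the pair differences at a smaller scale and is not a separate measure of spread. For Selp it was 0.777 in controls and 0.776 in APP/PS1 libraries, beside 1.53 for the pair differences. Differences between replicates that the correction removed are not in these SDs. Differences were tested with limma, with the pair as a term and p values adjusted over all 14106 genes by the Benjamini-Hochberg method.

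None of the 9 genes passed the test in APP/PS1 BECs. By limma, 0 of the 9 had an adjusted p under 0.05, as did 0 of the 14106 genes (0%), and 0 of the 9 had an unadjusted p under 0.05, compared with 1133 of all genes (8.03%). Limma-voom also gave 0 of the 9 at either threshold. There were 5 genes that had a log2 fold change above 0 and 4 below, from −0.23 for Vcam1 to 0.22 for Selp, with a median of 0.02 beside −0.00377 for all genes. The sign of this median was not stable, at −0.0160 with library size alone in place of the deposited scaling, −0.0583 by limma-voom and between −0.0942 and 0.0916 with a pair left out. The genes differed far more in how steady their differences were. The SD of the 5 pair differences was 1.53 log2 units for Selp and 1.04 for Sele, but 0.048 for Cd34, against a median of 0.173 over all genes. In 3 of the 9 genes (Icam1, Sele and Selp) it was above 0.5, compared with 11.1% of all genes, and in 5 of the 9 above 0.25, compared with 32.1%.

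**Figure D1:**
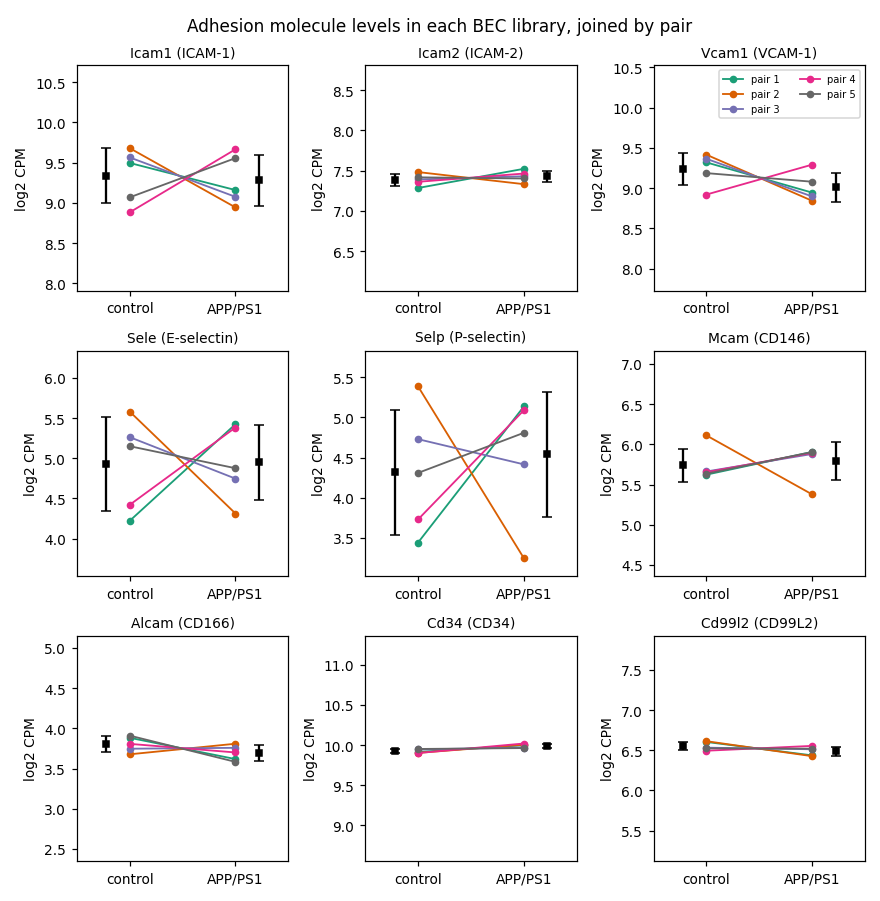
Level of each adhesion molecule gene in log2 CPM in the 5 control and 5 APP/PS1 libraries, with lines joining the 2 libraries of a pair and black squares with bars for the group mean and SD; each panel spans the same 2.8 log2 units. Lines cross steeply for Sele and Selp and lie nearly flat for Cd34, Cd99l2 and Icam2.

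Icam1 (chromosome 9 from 21015985 to 21028817 of GRCm38, plus strand) encodes ICAM-1, which binds the leukocyte integrins LFA-1 and Mac-1. It stood at 9.50, 9.68, 9.57, 8.88 and 9.07 log2 CPM in control libraries 1 to 5, and at 9.16, 8.94, 9.08, 9.67 and 9.56 in the APP/PS1 libraries 1 to 5. Control libraries 1 to 3 were high and 4 and 5 low, the APP/PS1 libraries showed the opposite, and the groups overlapped. Means were 9.34 ± 0.34 and 9.28 ± 0.31 (SD, n = 5 each). The log2 fold change was −0.06 (SE 0.248, limma adjusted p = 0.969), with a 95% interval from −0.67 to 0.55, that is from 0.629-fold to 1.47-fold. Its sign turned to 0.01 without replicate 1, to 0.11 without replicate 2 and to 0.05 without replicate 3.
The pair differences of Icam1 ran from −0.74 in pair 2 to 0.78 in pair 4, a spread wider than that of 93.0% of genes. Summed over 14 genes of the response to cell dissociation (led in level by Fos and Fosb), each with a log2 fold change above 0, the APP/PS1 library differed from its partner by −0.08, −0.11, 0.06, 0.51 and 0.30 log2 units in pairs 1 to 5. Icam1 and this list were both highest in pairs 4 and 5, but the part of the isolation in the Icam1 differences was not tested. Nfkbia, the gene of the NF-κB inhibitor IκBα and itself an NF-κB target, differed by −0.38, −0.43, −0.07, 0.62 and 0.30 in the same pairs. An antisense gene, Gm47079, shares 511 exonic bases with Icam1. It stood at 4.69 ± 0.34 log2 CPM in control libraries and its pair differences, from −0.83 to 0.75, followed the order of those of Icam1. The sources used here do not say whether reads were counted by strand. Whether reads of the 2 genes were kept apart where they overlap is thus not known.

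Vcam1 (chromosome 3 from 116109949 to 116129688, minus strand) encodes VCAM-1, the ligand of the integrin VLA-4. Its level was 9.32, 9.42, 9.36, 8.92 and 9.19 log2 CPM in control libraries 1 to 5, and 8.94, 8.84, 8.90, 9.29 and 9.08 in APP/PS1 libraries 1 to 5. The APP/PS1 library was the lower one in pairs 1, 2, 3 and 5 and the higher one in pair 4, so the groups overlapped. Vcam1 had the lowest log2 fold change of the 9 genes, −0.23 (SE 0.146, 95% interval −0.59 to 0.13, limma adjusted p = 0.795), and the two-sided exact sign-flip test over the pairs gave p = 0.188. Single pairs moved this value in both directions. Without replicate 4 the log2 fold change was −0.38, with an unadjusted p of 0.0103 and an adjusted p of 0.738 by limma, and without replicate 2 it was −0.14, with an unadjusted p of 0.398 and an adjusted p of 0.700 by limma.
Vcam1 is also in the list of venous endothelial markers. Without Vcam1, the list held 9 genes, of which 9 had a log2 fold change below 0 and 5 an unadjusted p under 0.05, compared with 5.91% of all genes with such a p in that direction. None of the 9 passed the adjusted threshold by limma. Vwf, von Willebrand factor, had a log2 fold change of −0.30 (SE 0.107, limma adjusted p = 0.581). Summed over the 9 genes, the level was 5014 to 5853 CPM in controls and 4036 to 4712 CPM in APP/PS1 libraries. The summed level differed by −0.38, −0.54, −0.41, −0.18 and −0.09 log2 units in pairs 1 to 5, where Vcam1 differed by −0.38, −0.57, −0.47, 0.37 and −0.11. In bulk RNA, fewer cells of a type and less RNA per cell cannot be told apart, and the part of the venous share in the Vcam1 difference was not tested. The antisense gene Gm43109 shares 61 exonic bases with Vcam1 and stood at 1.63 log2 CPM.

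Icam2 (chromosome 11 from 106377656 to 106388075, minus strand) encodes ICAM-2, a ligand of LFA-1 that endothelium carries without stimulation. It lay between 7.28 and 7.48 log2 CPM in control libraries, with a median of 7.39, and between 7.33 and 7.52 in those of APP/PS1 mice (median 7.43). The ranges overlapped. The log2 fold change was 0.04 (SE 0.0659, limma adjusted p = 0.906), with a 95% interval from 0.921-fold to 1.15-fold. Icam2 was thus known within a narrower interval than Icam1, whose pair differences had an SD of 0.658 log2 units compared with 0.144 for Icam2. Whether the 2 genes differed in their response to genotype was not tested.

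Sele and Selp lie near each other on chromosome 1 of GRCm38, Sele from 164048234 to 164057677 and Selp from 164115264 to 164150026, both on the plus strand. They encode E-selectin, which endothelium makes when activated, and P-selectin, which endothelial cells store in Weibel-Palade bodies and which platelets also carry. Sele stood at 4.22, 5.58, 5.26, 4.42 and 5.15 log2 CPM in control libraries 1 to 5 and at 5.42, 4.31, 4.75, 5.38 and 4.88 in APP/PS1 libraries 1 to 5. For Selp the values were 3.44, 5.38, 4.73, 3.73 and 4.31 in control libraries and 5.13, 3.25, 4.41, 5.09 and 4.81 in APP/PS1 libraries. In both genes the APP/PS1 library was far higher in pairs 1 and 4 and far lower in pair 2, and the groups overlapped.
The Selp difference of a pair reached 3.23-fold higher in APP/PS1 in pair 1 and 4.39-fold lower in pair 2, while that of Sele reached 2.30-fold higher and 2.41-fold lower in the same pairs. The log2 fold change of Sele was 0.02 (SE 0.388, limma adjusted p = 0.994), with a 95% interval from 0.523-fold to 1.97-fold. That of Selp was 0.22 (SE 0.570, limma adjusted p = 0.952), with an interval from 0.439-fold to 3.09-fold. The 5 pairs were therefore compatible with changes of the selectins anywhere within these intervals, and the smallest detectable change was not computed. The limma-voom value for Selp was 0.0195 on the log2 scale. The Selp value also rested on single pairs, at 0.81 without replicate 2, −0.15 without replicate 1 and −0.06 without replicate 4. Sele was at 0.34 without replicate 2, −0.27 without replicate 1 and −0.21 without replicate 4, and at −0.02 with library size alone and −0.14 by limma-voom.
The lowest library held 252 adjusted counts of Selp and 433 of Sele. Among the other 12189 genes with a mean of at least 1 log2 CPM, those whose 5 pair differences lay nearest to those of Selp were the processed pseudogene Gm15459 (root mean square distance 0.414 log2 units), Sele itself (0.598) and Tubb6, a β-tubulin (0.691). Platelet and megakaryocyte genes were also examined, since platelets carry P-selectin. Of their markers, 3 of the 10 listed were measured (Pf4, Ppbp and Gp9 were not among the genes analyzed here), at a summed 11.3 to 13.5 CPM in controls and 12.3 to 14.5 CPM in APP/PS1 libraries. Their summed level differed by 0.31, −0.07, −0.14, 0.36 and 0.06 log2 units in pairs 1 to 5. Itgb3 made up most of it, at 3.27 log2 CPM in controls beside 1.19 for Itga2b and −1.21 for Clec1b. Itga2b alone differed by 0.27, −0.01, −0.85, 0.70 and −0.52, and Clec1b by 0.66, −0.26, −1.04, −0.06 and −0.12. The part of these genes in the Selp differences was not tested. On the other strand, 2 genes, Gm16587 and Gm16548, share 624 exonic bases with Selp. Whether their reads were kept apart from Selp reads there is not known. Both stood below 0.1 log2 CPM.

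The windows before the transcription starts are shown for the 3 genes with the widest spread between pairs, Icam1, Sele and Selp, and for Cd34, the gene with the narrowest. RefSeq windows of 250 bases were found for 7 of the 9 genes on GRCm38.p6, and Icam2 and Vcam1 had none. Sequences run 5′ to 3′ on the gene's own strand, and capitals mark the letters searched for. The Cd34 window is printed without its last bases, which lie past the GENCODE start. The letters searched for on the gene's strand were TATAAA. On both strands they were GGAAATTCC (a form of the NF-κB consensus), TGANTCA (the AP-1 site), TGACATCA (an ATF-type site) and GGGCGG (the Sp1 site). A narrow NF-κB pattern was also searched for on both strands: GGG, a short gap of any bases, then TTTCC. Further forms of the NF-κB consensus were not searched for.
Icam1, chr9:21015690-21015939: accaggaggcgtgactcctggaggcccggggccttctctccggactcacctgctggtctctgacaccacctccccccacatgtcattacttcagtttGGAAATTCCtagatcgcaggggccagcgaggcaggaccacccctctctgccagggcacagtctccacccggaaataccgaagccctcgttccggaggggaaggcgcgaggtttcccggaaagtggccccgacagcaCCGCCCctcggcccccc
Sele, chr1:164047984-164048233: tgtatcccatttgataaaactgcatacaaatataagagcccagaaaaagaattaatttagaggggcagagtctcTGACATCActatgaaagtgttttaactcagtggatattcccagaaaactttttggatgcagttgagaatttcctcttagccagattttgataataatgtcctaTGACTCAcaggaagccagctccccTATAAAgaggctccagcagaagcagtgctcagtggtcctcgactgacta
Selp, chr1:164115014-164115263: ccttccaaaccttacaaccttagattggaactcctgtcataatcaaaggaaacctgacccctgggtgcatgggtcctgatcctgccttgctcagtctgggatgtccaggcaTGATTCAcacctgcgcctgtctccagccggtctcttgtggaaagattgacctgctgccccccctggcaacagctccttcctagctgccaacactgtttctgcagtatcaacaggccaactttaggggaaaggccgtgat
Cd34, chr1:194938571-194938818: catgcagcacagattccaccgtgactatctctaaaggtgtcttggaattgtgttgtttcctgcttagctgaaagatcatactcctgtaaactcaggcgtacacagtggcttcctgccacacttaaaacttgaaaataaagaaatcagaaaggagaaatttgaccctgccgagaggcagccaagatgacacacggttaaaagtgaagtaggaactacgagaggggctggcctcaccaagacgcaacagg
The Icam1 window held GGAAATTCC from 153 to 145 bases before the RefSeq start, letters found in 0.286% of 32851 windows of the same length, and 1 GGGCGG in reverse, found in 32.7%. The Sele window held TATAAA from 49 to 44 bases before the start (7.59% of windows), TGACTCA from 73 to 67 (TGANTCA, 6.75%) and TGACATCA from 176 to 169 (2.93%). The Selp window held TGATTCA from 139 to 133 bases before the start. The Cd34 window held none of these letters. The NF-κB consensus, in 1.41% of all windows, was in none of the 7. In base composition the windows ranged from 40.4% G and C in Sele and 46.4% in Cd34 to 69.2% in Alcam and 73.6% in Mcam, with a median of 52.4% over all windows. Of the 250 bases, 61 of the Mcam window and 0 of the Alcam window lie before the GENCODE start. The rest lie inside the annotated genes. A match describes letters and not a bound site.

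**Figure D2:**
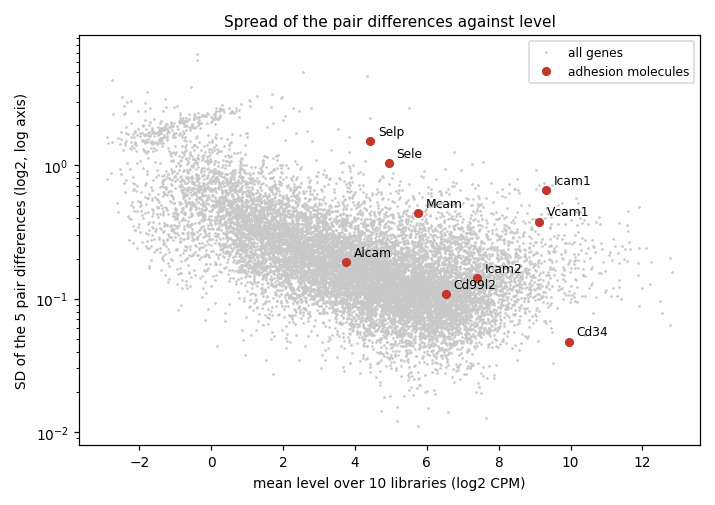
SD of the 5 pair differences in log2 units (log axis) against the mean level over 10 libraries in log2 CPM, with a grey dot for each of the 14106 genes and red dots for the adhesion molecules. Selp (1.53), Sele (1.04), Icam1 (0.658), Mcam (0.442) and Vcam1 (0.379) lie in the upper part of the cloud at their level and Cd34 (0.048) near its lower edge.

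Mcam (chromosome 9 from 44134469 to 44142727, plus strand) encodes CD146, an adhesion molecule of endothelial junctions that pericytes and smooth muscle cells also carry. In control libraries 1 to 5 it stood at 5.62, 6.11, 5.66, 5.65 and 5.64 log2 CPM and in APP/PS1 libraries 1 to 5 at 5.91, 5.38, 5.88, 5.89 and 5.90. Pair 2 was opposite to the others: Mcam was higher in APP/PS1 by 0.22 to 0.28 log2 units in pairs 1, 3, 4 and 5 and lower by 0.73 in pair 2. The log2 fold change was 0.06 (SE 0.169, limma adjusted p = 0.959, 95% interval −0.36 to 0.47). Without replicate 2 it was 0.25, with an unadjusted p of 0.00269 and an adjusted p of 0.206 by limma, and without replicate 1 it was −0.00134.
Mural cell markers differed in another pattern. Of 14 such genes, 14 had a log2 fold change below 0 and 12 an unadjusted p under 0.05, beside 5.91% of all genes with such a p in that direction, and none had an adjusted p under 0.05 by limma. Their summed level was 642 to 1076 CPM in controls and 334 to 643 CPM in APP/PS1 libraries. Rgs5, a pericyte regulator of G-protein signaling, had the highest level of the list, 8.88 ± 0.34 log2 CPM in controls and 8.12 ± 0.46 in APP/PS1 libraries. The summed mural level differed by −1.69 in pair 1 and −1.35 in pair 4, where Mcam was higher in APP/PS1 by 0.28 and 0.24, and by −0.32 in pair 2, where Mcam was lower. The part of mural RNA in the Mcam values was not tested.

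Alcam (chromosome 16 from 52248996 to 52454074, minus strand) encodes CD166, a partner of CD6 on lymphocytes. It was 3.88, 3.68, 3.75, 3.81 and 3.91 log2 CPM in control libraries 1 to 5 and 3.62, 3.81, 3.76, 3.70 and 3.58 in APP/PS1 libraries 1 to 5, with overlapping groups. Its log2 fold change was −0.11 (SE 0.0804, limma adjusted p = 0.823, 95% interval 0.807-fold to 1.06-fold). It ran from −0.17 without replicate 2 to −0.0573 without replicate 5. Cd99l2 (chromosome X from 71420060 to 71492849, minus strand) encodes a junctional molecule of leukocyte passage. It lay between 6.49 and 6.61 log2 CPM in controls and between 6.43 and 6.55 in APP/PS1 libraries, with a log2 fold change of −0.06 (SE 0.0557, limma adjusted p = 0.845, 95% interval 0.870-fold to 1.05-fold). Its groups overlapped, and without replicate 2 the log2 fold change was −0.0326. With library size alone it was −0.101 and the groups of Cd99l2 did not overlap, with 6.11% of all genes apart in that direction under this scaling.
Cd34 (chromosome 1 from 194938819 to 194961279, plus strand) encodes a sialomucin that can present ligands to L-selectin of leukocytes. Its values were 9.914, 9.903, 9.945, 9.900 and 9.951 log2 CPM in control libraries 1 to 5 and 9.998, 10.004, 9.969, 10.019 and 9.962 in APP/PS1 libraries 1 to 5. In the deposited values each APP/PS1 library lay above each control library, the one gene of the 9 whose groups did not overlap, while 7.88% of all genes had groups apart, 2.91% with APP/PS1 higher. The difference was small and depended on the scaling. The log2 fold change was 0.07 (SE 0.0426, limma adjusted p = 0.792), a 1.05-fold difference with a 95% interval from 0.9747-fold to 1.13-fold. With library size alone it was 0.0308 (limma adjusted p = 0.916), Cd34 was higher in 3 of 5 pairs, and the groups overlapped. In the deposited values Cd34 was higher in 5 of 5 pairs, where 7.99% of all genes kept 1 direction in the 5 pairs and 2.99% were higher in each. The two-sided exact sign-flip test gave p = 0.0625, the smallest that 5 pairs allow. Without the pair term, the unadjusted p of Cd34 was 0.0109 and the adjusted p 0.104 by limma. These p values are too small, since that fit ignores the centering within pairs. The genes nearest to Cd34 in their 5 pair differences were Zkscan17 (root mean square distance 0.0191), Eif4h (0.0241) and Pgrmc2 (0.0246), and those nearest to Vcam1 were Mustn1 (0.105), Bik (0.106) and Txnip (0.127). The antisense gene Gm16897 shares 148 exonic bases with Cd34 and stood at 3.82 log2 CPM in controls.

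**Figure D3:**
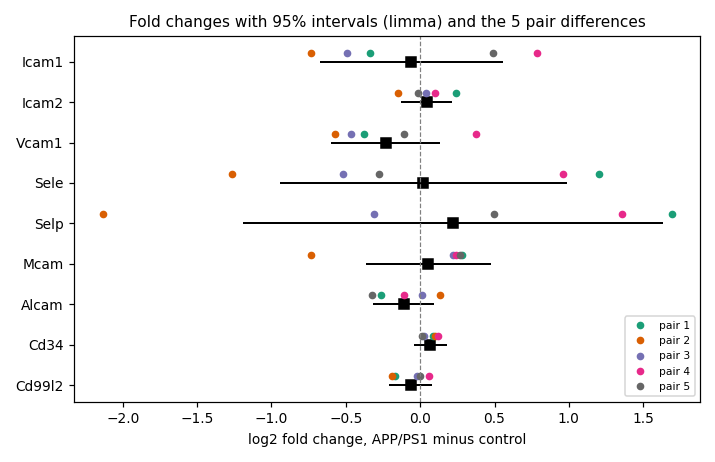
Log2 fold change of APP/PS1 over control for each gene (black square) with its 95% interval from limma (line) and the 5 pair differences (colored dots above). The interval of each gene spans 0, and it is widest for Selp (−1.19 to 1.63) and narrowest for Cd34 (−0.04 to 0.17).

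Levels of different genes were compared per kilobase of merged exons, as log2 of CPM per kb. In control libraries the order was Icam1 (7.21 ± 0.34), Cd34 (7.06 ± 0.02), Icam2 (6.46 ± 0.07), Vcam1 (6.09 ± 0.20), Cd99l2 (4.26 ± 0.05), Mcam (3.99 ± 0.21), Sele (3.39 ± 0.58), Selp (2.18 ± 0.78) and Alcam (0.97 ± 0.10; SD, n = 5 each). Icam1 and Cd34 did not differ beyond the spread left after centering, since Icam1 was the higher in 3 of 5 control and 2 of 5 APP/PS1 libraries. These 2 counts mirror each other through the centering within pairs and are not separate observations. Ranges also overlapped for Cd99l2 and Mcam, with Cd99l2 higher in 4 of 5 libraries of each group. Mcam and Sele, and Sele and Selp, overlapped in range, but kept their order within each library. The order depends on the length used. Per kb of the longest transcript, Cd34 was at 8.31, Icam1 at 7.997, Vcam1 at 7.21 and Icam2 at 7.03, so that both close pairs changed places.

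The wider machinery of leukocyte traffic was described with 8 lists, of which 104 of 129 genes were measured. By limma, 0 of the 104 passed an adjusted p under 0.05 (0% of all genes), and 10 had an unadjusted p under 0.05, that is 9.62% beside 8.03% of all genes. Of these, 1 was higher and 9 were lower, beside 2.13% and 5.91% of all genes. The higher gene was Cxcl12, the chemokine CXCL12 that brain endothelium displays to lymphocytes, at 11.43 ± 0.10 log2 CPM in controls and 11.70 ± 0.09 in APP/PS1 libraries, with a log2 fold change of 0.26 (SE 0.0806, limma adjusted p = 0.569) and higher values in all 5 pairs. Of 18 listed chemokines and chemokine scavengers, 11 were measured, 7 with a log2 fold change above 0 and a median of 0.02. Cx3cl1, the membrane-bound chemokine fractalkine, had a log2 fold change of 0.11 (SE 0.0832, limma adjusted p = 0.824).
Among junctional and other adhesion molecules, 18 of 22 were measured, 10 with a log2 fold change above 0, and the median was 0.01. Pecam1, the gene of the CD31 molecule used to enrich the cells, was at 10.76 ± 0.08 log2 CPM in controls and 10.84 ± 0.08 in APP/PS1 libraries. Tjp1, the scaffold protein ZO-1, had a log2 fold change of 0.09 (SE 0.0548, limma adjusted p = 0.775). Aoc3, vascular adhesion protein 1, had the smallest p of this list, with a log2 fold change of −0.29 (SE 0.100, limma adjusted p = 0.573) and lower values in all 5 pairs. Of 10 sialomucins and selectin ligands measured, 5 were above and 5 below 0. Podxl, podocalyxin, a relative of CD34, was at 11.45 ± 0.10 and 11.54 ± 0.10 log2 CPM. Cd93, a lectin-like receptor of endothelium, had a log2 fold change of 0.07, and Clec14a, a C-type lectin of endothelium, had a log2 fold change of −0.28 with an adjusted p of 0.594 from limma.
Enzymes that build selectin ligands were below 0 in 10 of 13 measured, with a median of −0.05. St3gal6, a sialyltransferase, was at −0.08, Gcnt2, a branching enzyme, at 0.04, and B3gnt3, which extends the sugar chains of L-selectin ligands, at −0.36 (limma adjusted p = 0.573). Of 9 sheddases and inhibitors measured, 5 were above 0. Adam15, the strongest after Timp3, was at −0.00369. Timp3, an inhibitor of the enzymes that shed adhesion molecules, was at 11.43 ± 0.18 log2 CPM in controls and 11.68 ± 0.18 in APP/PS1 libraries, and Mmp14 had a log2 fold change of −0.79 at a level of 0.82 log2 CPM in control libraries (limma adjusted p = 0.593).
The cytoskeletal partners of ICAM-1 and VCAM-1 were all measured (20 of 20). Among them, 4 had an unadjusted p under 0.05, each with a log2 fold change below 0: Ptk2b, the kinase PYK2, at −0.50 (limma adjusted p = 0.537), Arhgef26 at −0.36, Vav2 at −0.18 and Actn1 at −0.10. The last 3 were named after their values were seen. Actn4, an actin crosslinker, had a log2 fold change of 0.10. Of the 20 receptors and regulators that induce adhesion molecules, 12 were above 0 and the median was 0.02. Jun, a subunit of AP-1, had a log2 fold change of 0.05 and Nfkbia one of 0.01. Il1r1, the interleukin-1 receptor that is also in the venous list, had a log2 fold change of −0.33 (SE 0.102, limma adjusted p = 0.569) and was lower in 4 of 5 pairs.
Of 12 genes listed as counter-receptors on leukocytes, 3 were measured (Itga4, Itga9 and Il4ra), with log2 fold changes of −0.33, −0.05 and −0.00471. Il4ra encodes an interleukin-4 receptor chain and is not a counter-receptor of the adhesion molecules. The integrin genes Itgal, Itgam and Itgb2 were not among the genes analyzed here. Microglia and leukocyte markers, of which 13 of 17 were measured, summed to 62.6 to 74.5 CPM in controls and 56.7 to 67.9 CPM in APP/PS1 libraries.
Other cell types were described by their marker lists. Log2 fold changes were below 0 for 9 of 10 astrocyte genes, 10 of 11 oligodendrocyte lineage genes, 5 of 6 neuron genes, 5 of 5 fibroblast genes, 2 of 3 choroid plexus genes and 4 of 4 erythroid genes, and above 0 for 8 of 10 arterial genes, with 0 past the adjusted threshold by limma. The arterial list, summed, differed by 0.36, −0.27, −0.04, 0.48 and −0.11 log2 units in pairs 1 to 5, high in pairs 1 and 4 and low in pair 2 like the selectins, and its part in their differences was not tested.

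**Figure D4:**
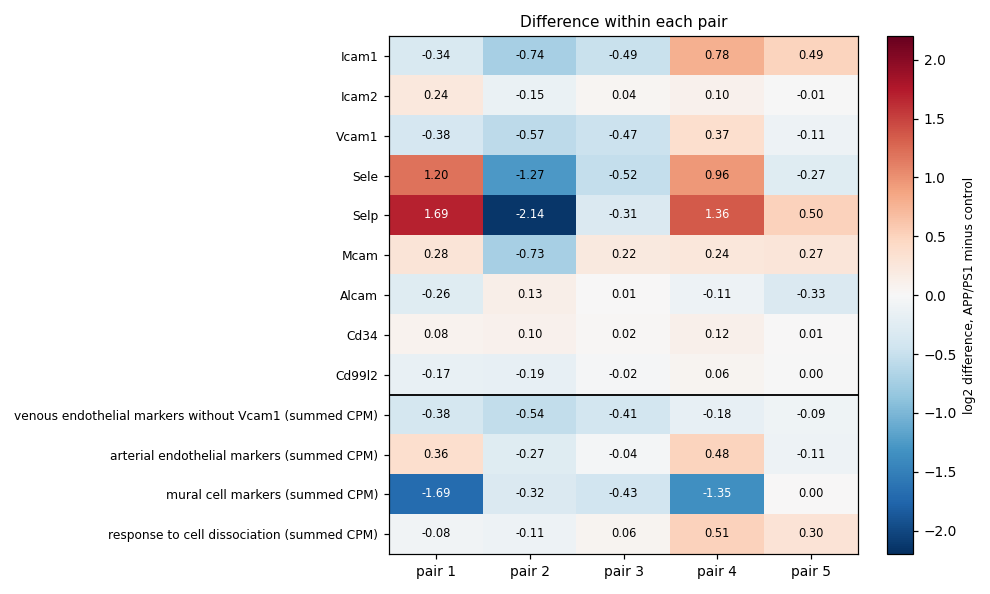
Log2 difference of the APP/PS1 library from the control library in each of the 5 pairs, for the 9 adhesion molecules and, under the line, for the summed CPM of 4 marker lists. Sele and Selp share high values in pairs 1 and 4 and low values in pair 2, Icam1 and Vcam1 are lowest in pair 2 and highest in pair 4, and the venous list is below 0 in all 5 pairs.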

How the data were processed

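Gene expression was measured in 10 BEC libraries, 5 per genotype. By the study's methods, the authors aligned reads to mm10 with STAR, counted them with HTSeq, removed weakly expressed genes and took log CPM with edgeR, and corrected for batch with ComBat. Versions are not given in the sources used here. The deposited values are log2 CPM of 14106 genes, and the 10 files per library equalled the columns of the common table. In each library 100% of values converted back to whole counts (within 0.01) with a prior count of 3. Since these adjusted counts carry the correction, they were not treated as reads, counting errors were left out, and a model of counts (limma-voom) served only as an alternative. A prior count understates the log2 fold changes of weak genes.

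R 4.3.3 with limma 3.58.1 (lmFit and eBayes without a trend) took the log2 CPM of all genes as deposited, with genotype and replicate number as terms, and the script was tested on simulated data. The labels give replicate numbers 1 to 3 a batch each and put 4 and 5 in 1 batch. Deviations of same-numbered libraries from their group means had rank correlations between −0.999 and −0.989 over 10873 genes, which comes from centering within each number, so 5 pairs were used. Symbols, positions and exon lengths came from GENCODE M21 (GRCm38, also called mm10), and windows before starts from RefSeq.

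The genes, lists and tests were chosen with earlier results of these data known. Named were the 9 genes, in each of 8 traffic lists the 2 strongest genes and the one with the smallest p, strong genes of marker lists, and the 3 genes nearest in their pair differences to Selp and Vcam1 (largest absolute log2 fold change) and Cd34 and Vcam1 (smallest p). Some genes that this rule names are not reported here. P values from fits with the pair as a term rest on the spread of the pair differences, and not on the SD of a group. Without a pair or batch term, p values rest on the spread between the libraries of a group, and the centering within pairs makes them too small. The alternatives tried are given at the end.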

Additional observations from a re-analysis of the deposited data

Results flagged for a closer look

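Among 18 groups of 5 libraries (9 genes in 2 genotypes), a library was sought whose gap to its nearest neighbor exceeded 0.71 of the range of the group. Chance gives this in about 1 of 20 groups. In all, 2 were found, both for Mcam in pair 2. The control library of pair 2 stood at 6.11 log2 CPM, with the other 4 between 5.62 and 5.66, and the APP/PS1 library of pair 2 stood at 5.38, with the other 4 between 5.88 and 5.91. Since values are centered within pairs, the 2 findings are 1 observation seen from both sides.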

How the results depend on the processing

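Of 9 settings that kept all libraries, 5 changed only the error, the batch term or the genes tested and left each log2 fold change as it was by construction. Under the other 4 (library size alone, median-of-ratios scaling, a prior count of 0.5 and limma-voom), 34 of 36 values kept their direction, and 0 of the 9 genes passed the adjusted threshold under any of the 9. Those that turned were of Sele, at −0.0160 with library size alone and −0.14 by limma-voom. With the replicate block (5 pairs) 0 genes were called by limma, without it 648, and 1 with the 4 batches of the labels. The last 2 fits count 8 and 5 residual degrees of freedom, in place of 4. Centering within the 5 pairs had already used these up, so the p values of both fits are too small and their calls are not evidence of differences. Without the block, 1 of the 9 genes (Cd34) had an unadjusted p under 0.05 and 0 an adjusted one, beside 21.6% and 4.59% of all genes. With a pair left out, between 0 and 5 genes were called overall (5 without replicate 2, and 1 without replicate 5), 0 of the 9 passed the adjusted threshold, and 0 or 1 had an unadjusted p under 0.05, which was Mcam without replicate 2 (beside 14.2% of all genes) and Vcam1 without replicate 4 (6.11%). Of 45 such values, 9 turned sign, and the lowest and highest were −0.27 and 0.11 for Icam1, −0.00554 and 0.0916 for Icam2, −0.27 and 0.34 for Sele, −0.15 and 0.81 for Selp, and −0.00134 and 0.25 for Mcam. For the genes that kept their sign they were −0.38 and −0.14 for Vcam1, −0.17 and −0.0573 for Alcam, 0.0555 and 0.0823 for Cd34, and −0.0942 and −0.0326 for Cd99l2. The cause was not tested. Library size alone moved the all-gene median of log2 fold changes from −0.00377 to −0.0409, and with it 156 genes were higher and 980 lower at an unadjusted p under 0.05, in place of 300 and 833. The 9 genes moved down with it, Icam1 to −0.0958, Icam2 to 0.00594 and Mcam to 0.0182, and limma-voom put Icam1 at −0.0993 and Mcam at 0.0305. The lowest adjusted count of the 9 genes was 252. With the same 5 pairs and 4 residual degrees of freedom for each gene, the SE ran from 0.0426 for Cd34 to 0.570 for Selp. These SEs include the eBayes step and are not the spread of the pair differences alone.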
